A study of Mus musculus with 18 samples.

Results

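The endoplasmic reticulum (ER) chaperones and unfolded protein response genes are described here as a list of 39 mouse genes: the chaperones and disulfide isomerases that fold secretory proteins, the stress sensors, the ER-associated degradation machinery, the channel through which proteins enter the ER, and the receptors that carry cargo out of it. Members were taken by gene symbol from both deposited tables. The table of acute libraries held 38 of the 39 among its 18329 genes, all but Pdia5, and the table of survival libraries held all 39 among its 18953 genes. Tests covered the 38 members with a mean of at least 10, the same number in both tables. Pdia5 was listed in the survival table with a mean of 2.47 and a highest value of 8.33, and was above 0 in 4 libraries.

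RNA was sequenced from leukemic spleens of C57BL/6 mice that had been irradiated sub-lethally and injected with T-cell acute lymphoblastic leukemia (T-ALL) cells carrying a conditional Acly allele, so host spleen cells are present in the samples. KO acute spleens (n = 4) came from overtly leukemic mice collected 48 h after tamoxifen at 3 mg per mouse, and WT acute spleens (n = 4) came from such mice 48 h after corn oil alone. KO survival spleens, labelled as a first wave (n = 3) or as a second wave (n = 3), and WT survival spleens (n = 4) came from mice that were given tamoxifen or corn oil 48 h after transplantation and collected at the humane endpoint. Every spleen, WT included, carried the conditional leukemia, and KO and WT also differ in tamoxifen; what drives the Cre recombinase, what set the waves apart and whether each library is a separate mouse are not given in the labels, so the p-values reflect only the spread among these libraries, which may be technical. The values are normalized counts, and each table was normalized on its own, so tests were made within a table.

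Proteins of the secretory pathway enter the ER through the SEC61 channel, are folded there by chaperones such as BiP (Hspa5) and GRP94 (Hsp90b1), by the calnexin and calreticulin cycle for glycoproteins and by protein disulfide isomerases, and are then loaded into transport vesicles. Unfolded protein activates the sensors IRE1 (Ern1), PERK (Eif2ak3) and ATF6 (Atf6); IRE1 splices the mRNA of Xbp1, and XBP1 and ATF6 raise transcription of chaperone and degradation genes through DNA sequences known as ER stress response elements. Proteins that do not fold are returned to the cytosol by the degradation machinery around Syvn1 and Sel1l. Acly encodes ATP citrate lyase, which makes cytosolic acetyl-CoA, the precursor of fatty acids and sterols.

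The ER stress response element is shown because it is the sequence through which the response is known to reach many of these genes. A RefSeq promoter window (GRCm38.p6, 250 bases before to 50 bases after the RefSeq start) was found for 30 of the 39 members. Its letters, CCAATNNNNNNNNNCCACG on either strand, were in the windows of 8 members, 26.7% of the 30, and in the windows of 37 of all 27025 genes, 0.137%. The list was drawn up around this response, so the higher share describes the list and tests nothing. The 8 were Hspa5, Hsp90b1, Calr, Canx, Creld2, Dnajc3, Pdia6 and Syvn1, and Hsp90b1 held 2 matches. The stretches below run 5′ to 3′ on the gene's own strand with the match in capitals and 20 bases on each side, and each lies before the RefSeq start; a match that reads CGTGG first is on the opposite strand. The Hspa5 match is named only, because it lies inside the first Hspa5 exon of GENCODE M21.
Calr, chr8:84847055-84847113, minus strand: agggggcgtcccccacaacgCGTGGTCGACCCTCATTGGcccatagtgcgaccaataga
Canx, chr11:50325780-50325838, minus strand: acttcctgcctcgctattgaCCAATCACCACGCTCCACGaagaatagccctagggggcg
Hsp90b1, chr10:86705618-86705676, minus strand: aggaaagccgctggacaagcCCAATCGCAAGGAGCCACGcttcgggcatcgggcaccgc
Hsp90b1, chr10:86705513-86705571, minus strand: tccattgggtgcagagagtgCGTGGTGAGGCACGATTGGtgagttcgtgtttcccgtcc
Dnajc3, chr14:118937807-118937865, plus strand: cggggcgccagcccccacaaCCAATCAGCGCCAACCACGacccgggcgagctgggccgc
Pdia6, chr12:17266471-17266529, plus strand: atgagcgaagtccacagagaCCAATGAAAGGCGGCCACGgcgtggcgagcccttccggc
Creld2, chr15:88819500-88819558, plus strand: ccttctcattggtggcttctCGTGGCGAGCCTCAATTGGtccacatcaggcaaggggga
Syvn1, chr19:6046512-6046570, plus strand: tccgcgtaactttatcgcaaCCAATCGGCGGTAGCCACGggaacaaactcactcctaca

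The related element II, ATTGGNCCACG on either strand, was in the windows of Dnajb11 and Herpud1 and in those of 12 of all genes (0.0444%). The Herpud1 match lies in chr8:94386357-94386407 on the plus strand.
Herpud1: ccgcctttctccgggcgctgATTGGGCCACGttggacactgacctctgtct
The core of the unfolded protein response element, TGACGTGG on either strand, was in 1 member window, that of Txndc5, and in those of 193 of all genes (0.714%). The letters do not show that a factor was bound in these cells. Of the members with a window, 13 were lower in KO acute spleens by the test described next, and the ER stress response element was in 4 of those 13 windows (Hspa5, Hsp90b1, Calr and Canx); Creld2, Dnajc3, Pdia6 and Syvn1 hold the same letters and did not pass.

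Normalized totals were 7.07 to 7.26 M in KO acute libraries and 7.64 to 8.03 M in WT acute libraries, so every KO total was below every WT total. Survival libraries had totals of 9.19 to 10.39 M. The steps between low values put the depth at an estimated 6.09 to 12.7 M reads. Acly, the targeted gene, was at 733 ± 85.1 in KO acute spleens and 1256 ± 122 in WT acute spleens (SD, n = 4 each), 58.4% of WT (log2 fold change -0.78, adjusted p = 0.00266; exact two-sided permutation p = 0.0286, the smallest 4 against 4 allows). It was at 727 ± 71.8 in the first wave and 576 ± 75.3 in the second wave (SD, n = 3 each), against 1697 ± 154 in WT survival spleens (SD, n = 4); the adjusted p was 0.0562 in the first wave and 0.00155 in the second. Acly RNA was therefore still present in every KO library. KO acute libraries 1 and 2 had 4.80% and 5.27% of their counts in mitochondrial genes, against 2.35% and 2.70% in KO acute libraries 3 and 4 and 3.50% to 3.69% in WT acute libraries. On the first principal component of the survival libraries, WT survival libraries 1 and 2 scored 78.6 and 67.2. Second-wave library 1 scored -73.2, and the other survival libraries lay between -18.8 and 4.16. Counts of members called and the acute calls lost are given also without KO acute libraries 1 and 2. For survival spleens, counts of members called are given also without WT survival libraries 1 and 2. So are the changes of the 6 members with the smallest p in each wave against WT.

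In acute spleens, 15 of the 38 tested members were lower in KO than in WT and 0 were higher (limma on log2(value + 1), Benjamini-Hochberg adjusted p under 0.05 over 14184 genes). Of all genes tested, 12.6% passed: 8.07% were lower and 4.58% higher. The members' share was 39.5%. The log2 fold change was negative for 30 of the 38 members, against 47.6% of all genes, and its median was -0.30 over the members and 0.03 over all genes. The groups did not overlap, with every KO library below every WT library, for 17 members, and with every KO library above every WT library for 1, Hyou1; the shares over all genes were 11% and 8.04%. The decrease reached the folding, entry and exit steps, with all 3 p24 cargo receptors and both lectin chaperones lower, 3 of 9 luminal chaperones, 3 of 7 translocation genes, 2 of 7 disulfide isomerases, 1 of 4 sensors and transcription factors and 1 of 6 degradation genes.

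**Figure D1:**
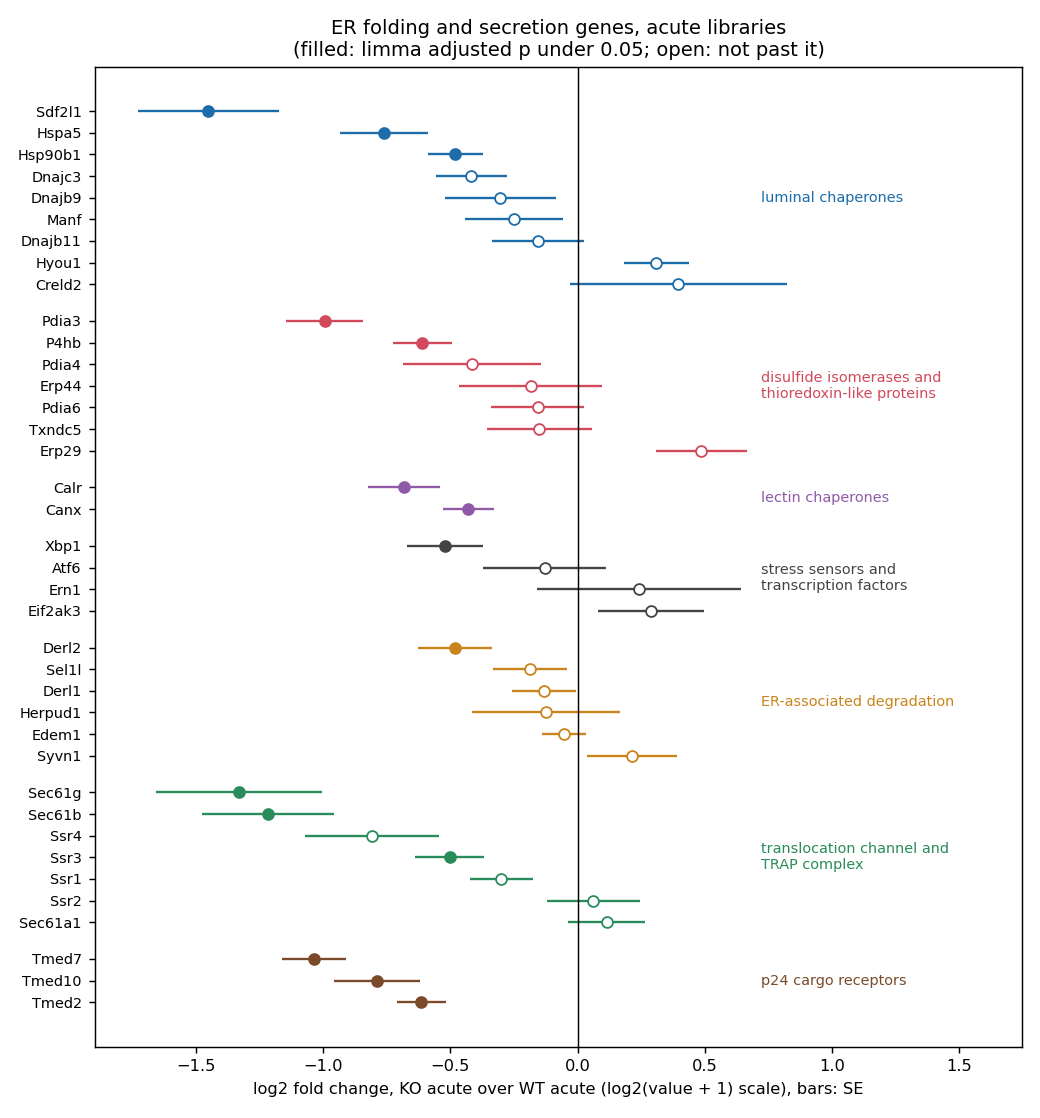
Log2 fold change of the 38 tested members in KO acute against WT acute spleens, with the standard error of the limma fit, grouped by role; filled points passed an adjusted p of 0.05. The 15 filled points all lie left of 0, from -1.45 (Sdf2l1) to -0.43 (Canx), and Erp29 lies farthest right at 0.49.

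BiP (Hspa5), the HSP70 of the ER lumen and the partner that the stress sensors release, had normalized counts of 957, 873, 765 and 579 in KO acute spleens, against 1460.5, 1282, 1029 and 1588 in WT acute spleens. The lowest WT library was above the highest KO library, and the log2 fold change was -0.76 ± 0.17 (SE, adjusted p = 0.0123). Hsp90b1, which encodes the ER HSP90 protein GRP94, had 2568, 2514, 2304 and 2378 in KO acute spleens, against 3861, 3447, 2891 and 3494 in WT acute spleens. These groups too were apart, with a smaller change of -0.48 ± 0.11 (adjusted p = 0.0113). Sdf2l1, a small protein of the BiP chaperone complex, had 70.1, 41.1, 50.4 and 45.1 in KO acute spleens, against 171, 151, 99.2 and 149.8 in WT acute spleens. At -1.45 ± 0.28 (adjusted p = 0.00515) it had the most negative log2 fold change of the members.

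The other luminal chaperones did not pass the test, and they lay on both sides of 0. Dnajc3, a BiP co-chaperone known as P58IPK, had 916, 667, 958 and 760.3 in KO acute spleens, against 975, 1097, 1162 and 1141 in WT acute spleens; the highest KO library was below the lowest WT library, and the change of -0.42 ± 0.14 missed the threshold (adjusted p = 0.0651). Hyou1, the ER protein GRP170 that exchanges the nucleotide of BiP, went the other way, with 876, 966, 895 and 823 in KO acute spleens, against 750.0, 607, 778 and 746 in WT acute spleens. Its groups did not overlap either, and its change was 0.31 ± 0.13 (adjusted p = 0.130). The BiP co-chaperones Dnajb9 (-0.30) and Dnajb11 (-0.15), the secreted ER factor Manf (-0.25) and Creld2 (0.40) had log2 fold changes with overlapping groups and adjusted p-values of 0.391, 0.618, 0.426 and 0.584. Creld2 was the least abundant tested member, with 17.3 to 55.7 in KO acute spleens and 23.9 to 37.5 in WT acute spleens.

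Both lectin chaperones, which hold newly made glycoproteins until they fold, fell. Calreticulin (Calr), the soluble one, had 974, 1437, 1411 and 1207 in KO acute spleens, against 2277, 1865, 1762 and 2125 in WT acute spleens, a log2 fold change of -0.68 ± 0.14 (adjusted p = 0.00754). Calnexin (Canx), its membrane-bound relative, had 2552, 2337, 2402 and 2134 in KO acute spleens, against 3288, 3383, 2967 and 3058 in WT acute spleens, a change of -0.43 ± 0.10 (adjusted p = 0.0137). For both genes the highest KO library lay below the lowest WT library. Pdia3 (ERp57), the disulfide isomerase that works with these lectins, had 698, 689, 1059 and 1006 in KO acute spleens, against 1612, 1732, 1795 and 1615 in WT acute spleens. Its change was -0.99 ± 0.15 (adjusted p = 0.00171).

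P4hb, the founding protein disulfide isomerase and a subunit of collagen prolyl hydroxylase, had 647, 681, 656 and 749 in KO acute spleens, against 1071, 1028, 1021 and 1049 in WT acute spleens. The libraries of each group lay close together and the change was -0.61 ± 0.12 (adjusted p = 0.00485). The 5 other isomerases and thioredoxin-like proteins tested did not pass. Pdia4 (-0.41), Pdia6 (-0.16), Txndc5 (-0.15) and Erp44 (-0.18), which retains proteins by thiol exchange in the early secretory pathway, had adjusted p-values of 0.345 to 0.715. Erp29, a PDI-like chaperone without the active-site cysteines, had 473, 703, 584 and 429.7 in KO acute spleens, against 347, 426, 441 and 330.4 in WT acute spleens. KO library 4 lay below WT library 3, so the groups overlapped. The change of 0.49 ± 0.18 was the highest among the members (adjusted p = 0.0919).

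Of the sensors and their transcription factors, Xbp1 alone passed. It had 321, 394, 369 and 309 in KO acute spleens, against 538, 453, 536 and 469 in WT acute spleens, and the change was -0.52 ± 0.15 (adjusted p = 0.0350). The counts are per gene and do not separate spliced from unspliced Xbp1 mRNA. Ern1, the kinase and nuclease that splices it, spread from 70.2 to 344 in KO acute spleens and from 82.7 to 151 in WT acute spleens (0.24 ± 0.40, adjusted p = 0.739). Atf6 (-0.13 ± 0.24, adjusted p = 0.768) and Eif2ak3 (0.29 ± 0.21, adjusted p = 0.390) had overlapping groups as well.

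The degradation genes were mostly within the spread of the libraries. Derl2, a membrane protein of the channel that returns misfolded proteins to the cytosol, had 462, 555, 557 and 496 in KO acute spleens, against 832, 731, 586 and 758 in WT acute spleens; the groups did not overlap and the change was -0.48 ± 0.15 (adjusted p = 0.0440). The ubiquitin ligase Syvn1 (0.21), its partner Sel1l (-0.19), Derl1 (-0.13) and the mannosidase-like Edem1 (-0.05) did not pass, with adjusted p-values of 0.432 to 0.731. Herpud1, which assembles the ligase complex and is induced by ER stress, had 154, 371, 129 and 163 in KO acute spleens, against 259.7, 171, 192 and 198 in WT acute spleens. KO acute library 2 was the highest of the 8, the other KO libraries were below every WT library, and the change was -0.12 ± 0.29 (adjusted p = 0.822). Edem1 had the highest counts of the members, 13143 to 16160 in KO acute spleens and 14766 to 15198 in WT acute spleens, and per kb of transcript its mean level in WT acute spleens was 2581, next to 2509 for Tmed7.

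Both small subunits of the SEC61 channel fell. Sec61b had 88.6, 66.2, 61.4 and 134 in KO acute spleens, against 175, 206, 193 and 208 in WT acute spleens (-1.22 ± 0.26, adjusted p = 0.00878), and Sec61g had 68.6, 25.5, 50.8 and 33.7 in KO acute spleens, against 98.9, 98.0, 114 and 116 in WT acute spleens (-1.33 ± 0.33, adjusted p = 0.0171). No KO library reached the lowest WT library for either gene. Sec61a1, which forms the pore itself, had 1217 to 1866 in KO acute spleens and 1082 to 1543 in WT acute spleens, overlapping groups with a change of 0.12 ± 0.15 (adjusted p = 0.663). In the TRAP complex, which sits beside the channel, Ssr3 had 1708, 1637, 2217 and 2207 in KO acute spleens, against 2395, 2765, 2576 and 3241 in WT acute spleens (-0.50 ± 0.13, adjusted p = 0.0265). Ssr4 had 82.8, 150.1, 195 and 193 in KO acute spleens, against 247, 266, 218 and 313 in WT acute spleens, groups that were apart with a change of -0.81 ± 0.26 that missed the threshold (adjusted p = 0.0590), while Ssr1 (-0.30, adjusted p = 0.129) and Ssr2 (0.06, adjusted p = 0.858) overlapped.

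All 3 p24 proteins, transmembrane receptors that sort cargo into the vesicles moving between ER and Golgi, fell. Tmed7 had 1608, 1364, 1960.5 and 1945 in KO acute spleens, against 3542, 3284, 3474 and 3673 in WT acute spleens. Its log2 fold change of -1.04 ± 0.12 had the smallest adjusted p of the members (0.000947). Tmed2 had 1664, 1832, 1913 and 1867 in KO acute spleens, against 2822, 2795, 2729.8 and 2787 in WT acute spleens, a change of -0.62 ± 0.10 (adjusted p = 0.00194). Tmed10 had 393, 339, 451 and 607 in KO acute spleens, against 788, 788, 721 and 731 in WT acute spleens, a change of -0.79 ± 0.17 (adjusted p = 0.00930). The KO and WT libraries did not overlap for any of the 3. Some exons of Tmed7 are shared with Ticam2 on the same strand in GENCODE M21, and processed pseudogenes of Tmed10 and of Calr are annotated, so reads of these pairs cannot be told apart with certainty.

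**Figure D2:**
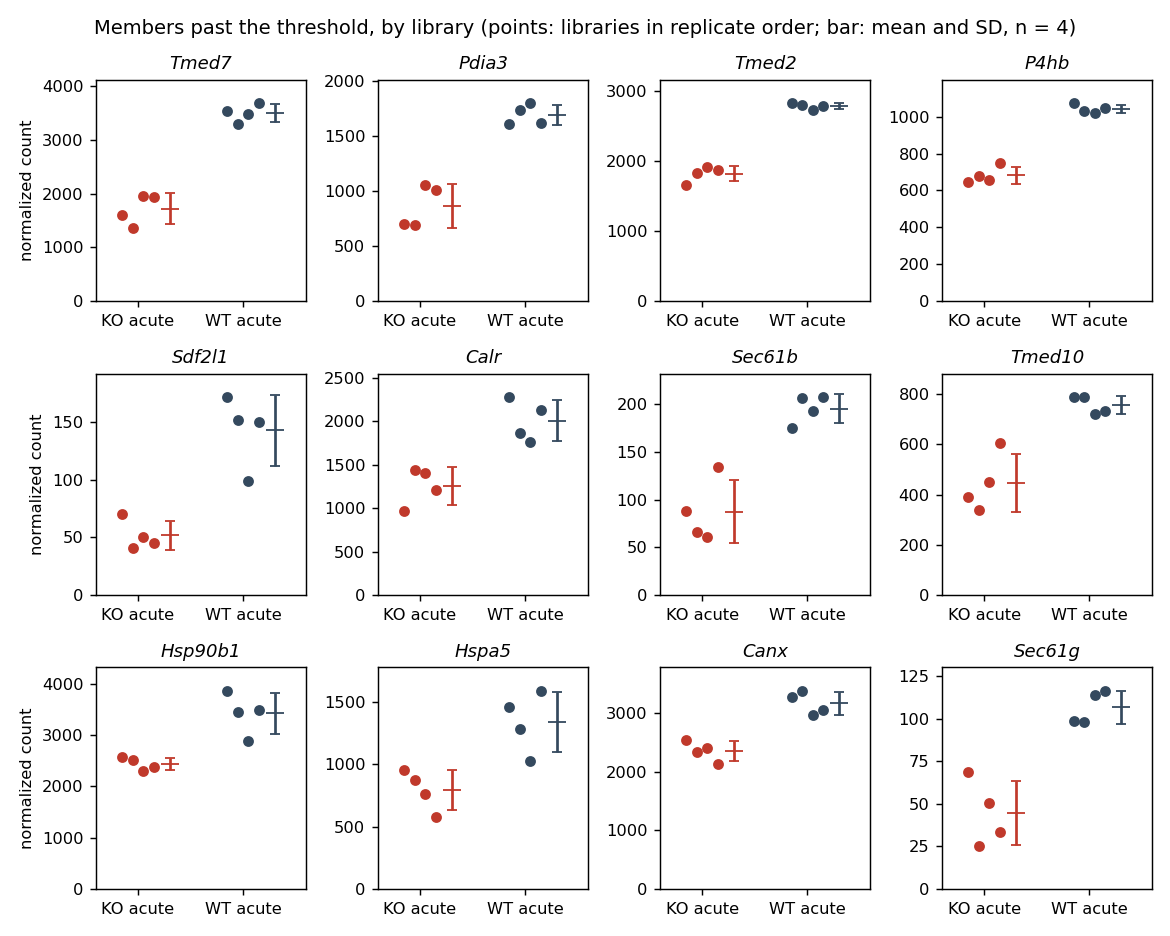
Normalized counts of the 12 members with the smallest adjusted p in the acute table, by library, for KO acute and WT acute spleens; points are libraries and bars are means with SD (n = 4 each), and every axis starts at 0. In each of the 12 panels the highest KO library lies below the lowest WT library, and for Tmed7 the KO libraries sit at 1364 to 1961 against 3284 to 3673 in WT.

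The 15 members that fell did so in each KO library: their median log2 difference from the WT mean was -0.69, -0.61, -0.67 and -0.58 in KO acute libraries 1 to 4. These libraries chose the 15, so the values describe them and test nothing. The 23 members that did not pass had a median log2 fold change of -0.13. All members together took 0.528% to 0.596% of the normalized counts in KO acute spleens and 0.624% to 0.66% in WT acute spleens; without Edem1 the ranges were 0.346% to 0.368% in KO and 0.427% to 0.464% in WT. The members that fell were shorter, with a median transcript length of 1630 bases against 2619 bases for those that did not, and more abundant, with a median normalized count of 1067 against 315. After removal of each library's trend over transcript length, GC and abundance, 9 members were called, all lower, against 9.67% of all genes. Tmed7, Pdia3, P4hb, Sdf2l1, Calr, Hspa5, Sec61b, Sec61g and Tmed10 were the 9, whereas Tmed2 (-0.62 became -0.32, adjusted p = 0.0506), Hsp90b1, Canx, Derl2, Ssr3 and Xbp1 lost the call. Without a trend of the variance over abundance 7 were called, against 4.89% of all genes. P4hb, Pdia3, Sdf2l1 and Tmed7 kept the call under all 19 alternatives tried for the acute comparison, while Derl2 lost it under 13, Xbp1 under 12 and Ssr3 under 8.

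Summed RNA of marker genes was apart between the acute groups for some cell types and overlapped for others. Beside the counts of markers past the threshold, 8.07% of all genes were lower and 4.58% higher. The summed normalized counts of 24 thymocyte and T-ALL markers were 64150 to 86360 in KO acute spleens and 90350 to 104300 in WT acute spleens; 5 of the 23 tested fell and 2 rose. Neutrophil and precursor markers summed to 2267 to 6192 in KO and 1320 to 2724 in WT, with a positive log2 fold change for all 17 tested and 2 past the threshold. Erythroid markers summed to 6437 to 18700 in KO and 12620 to 22120 in WT, with 3 of 18 lower. B cell markers summed to 586.5 to 1443 in KO and 423.3 to 914.8 in WT (0 of 10 past the threshold), stroma and endothelium markers to 1477 to 1670 in KO and 1118 to 1317 in WT (1 of 5 higher), and macrophage markers to 509 to 746 in KO and 524 to 733 in WT (0 of 9). Plasma cells carry a large ER, so their markers matter for this list: they summed to 1521 to 1906 in KO and 1686 to 2078 in WT, and 1 of 6, Irf4, was lower. Irf4 is also expressed by activated T cells. Jchain, which joins secreted antibody, had 202 to 289 in KO and 309 to 361 in WT (adjusted p = 0.0707), and Mzb1 and Tnfrsf17 were not among the genes of the acute table. No marker that was in the table was at 0 in every library of a group. The part of these cells in the members' decrease was not tested, and in bulk RNA fewer cells of a type and less RNA per cell cannot be told apart. Without KO acute libraries 1 and 2, which had the high mitochondrial shares, 10 members were called, all lower, against 6.43% of all genes, and the members' median log2 fold change was -0.43; Sec61b, Tmed10, Xbp1, Derl2 and Ssr3 lost the call, at adjusted p-values of 0.0509 to 0.190.

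**Figure D3:**
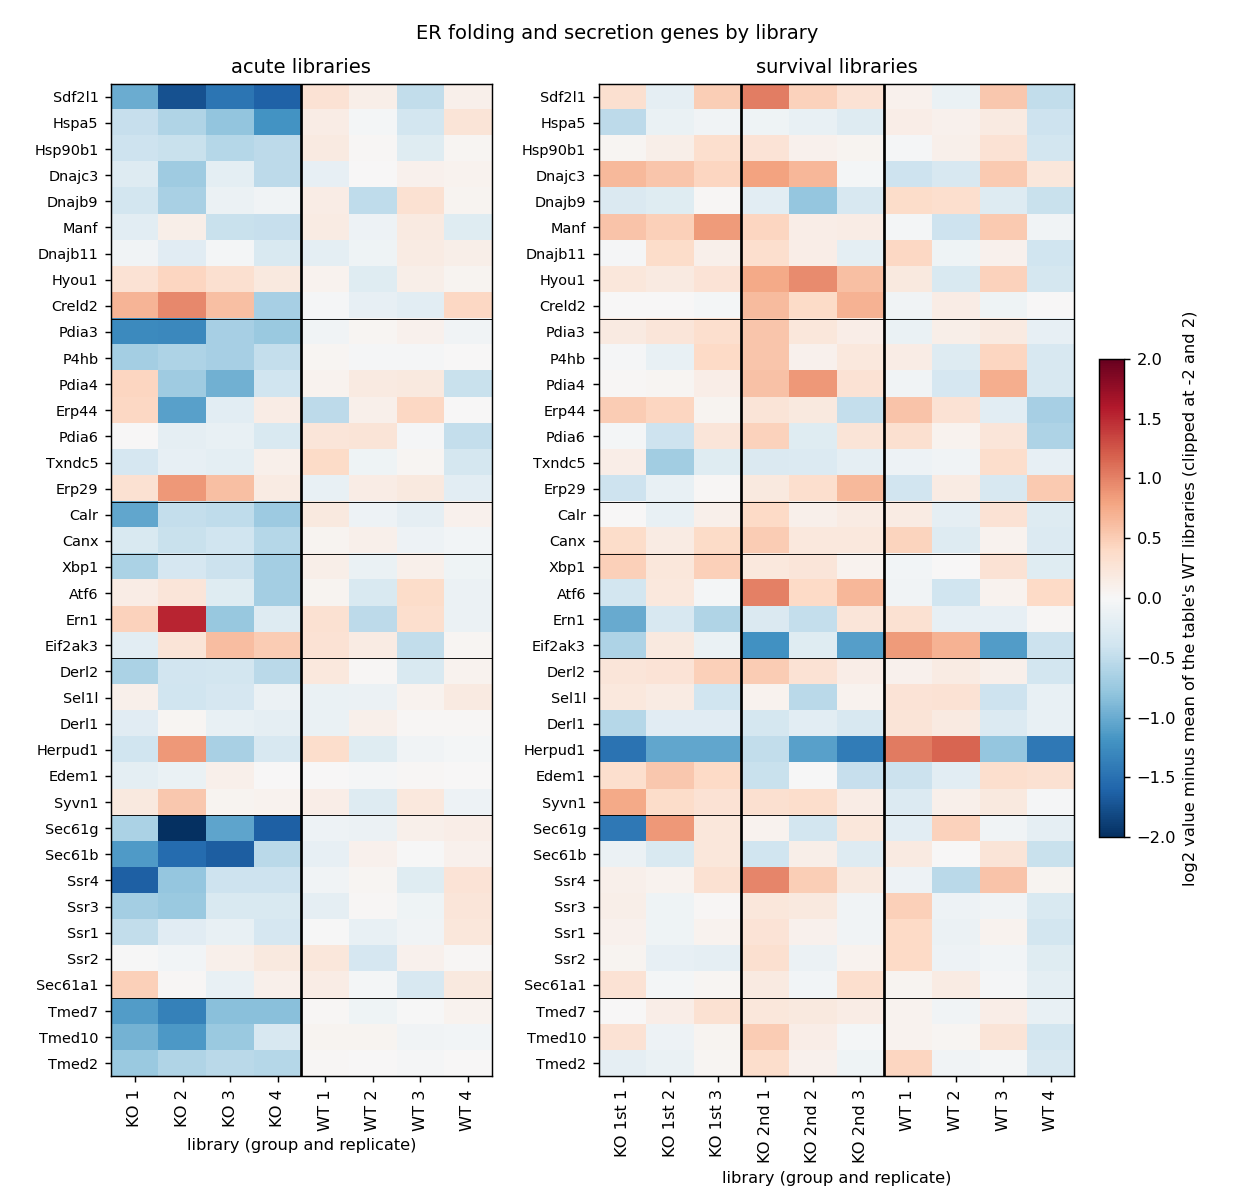
Log2 difference of each member from its WT mean in every library, acute libraries on one side and survival libraries on the other, each table against its own WT mean, with members in rows by role. In the KO acute columns most rows are below 0, most of all Sdf2l1, Sec61g and Sec61b, and in the survival columns Herpud1 and Eif2ak3 are high in WT libraries 1 and 2.

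Other genes of the same pathway, 137 in 6 lists, gave 134 tested in acute spleens, of which 21 fell and 3 rose (17.9% past the threshold, against 12.6% of all genes), with a median log2 fold change of -0.09. Genes of signal sequence handling and translocation had 6 of 19 lower, with the signal peptidase subunits Spcs1 (-1.10) and Spcs3 (-0.69) and the translocating chain protein Tram1 (-0.75) first by adjusted p. Early secretory transport had 7 of 38 lower, among them the COPI coat genes Copb1 (-0.83) and Copz1 (-0.82) and the KDEL receptor Kdelr2 (-0.79), which returns escaped chaperones to the ER. In the oligosaccharyltransferase, the enzyme that attaches N-glycans, 2 of 12 fell, the catalytic subunit Stt3b (-0.83) and Magt1 (-0.61). The folding genes split, with 4 of 26 lower and 3 higher: the prolyl isomerase Ppib had 349, 293, 339.7 and 413 in KO acute spleens, against 719, 782, 556 and 709.8 in WT acute spleens (-0.98 ± 0.16, adjusted p = 0.00223), while Fkbp11, also a prolyl isomerase of the ER, had 167, 179, 119 and 151 in KO acute spleens, against 52.7, 72.3, 79.3 and 61.1 in WT acute spleens (1.20 ± 0.25, adjusted p = 0.00720). The other 2 that rose, named after their values were seen, were the oxidase Ero1l (0.54), which reoxidizes disulfide isomerases, and Cnpy3 (0.63). Both were near the threshold (adjusted p = 0.0472 for Ero1l and 0.0495 for Cnpy3), and the groups overlapped for Ero1l. Of 22 other degradation genes 1 fell, the ubiquitin-conjugating enzyme Ube2j1 (-1.09), and of 17 other unfolded protein response genes 1 fell, the eIF2α phosphatase subunit Ppp1r15b (-0.38). These 17 other unfolded protein response genes had log2 fold changes from -0.38 to 1.02, with a median of 0.09. Groups did not overlap for 2 lower and 2 higher genes of the 17, against 11% and 8.04% of all genes. Of the 17, Ddit3 (CHOP) and Atf4 were picked for display and did not pass. Ddit3 had 59.3 to 91.0 in KO acute spleens and 43.3 to 95.2 in WT acute spleens. Atf4 had 415 to 540 in KO and 395 to 662 in WT. The activity of PERK was not measured.

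In survival spleens no member passed in any comparison. In the first wave against WT, 0 of 38 were called by limma, as were 0% of all 14286 genes; at an unadjusted p under 0.05 there were 2 lower and 4 higher members, against 3.6% and 4.42% of all genes. Every first-wave library was below every WT library for 1 member, Ern1, and above for 4, Derl2, Edem1, Pdia3 and Syvn1, against 3.6% and 4.4% of all genes. The members' median log2 fold change was 0.04. In the second wave against WT, 0 members were called, against 0.224% of all genes (32), with 0 lower and 3 higher at an unadjusted p under 0.05, against 6.4% and 6.59% of all genes, and a median of 0.16. Groups did not overlap for Txndc5, lower, and for Creld2, Hyou1 and Tmed7, higher; such genes were 4.62% and 5.04% of all. For both waves together against WT, 0 members were called against 0.021% of all genes, with 1 lower and 2 higher at an unadjusted p under 0.05 (5.77% and 7.09% of all genes). These comparisons share the 4 WT libraries. The shares over all genes moved with single libraries: without WT survival library 3 they were 0.979% in the second wave and 1.08% for both waves. Thymocyte and T-ALL markers summed to 122800 to 141600 in the first wave and 99660 to 108400 in the second wave, against 77610 to 123700 in WT, and B cell markers to 517 to 570 in the first wave and 279 to 413 in the second wave, against 510 to 809 in WT. Neutrophil and precursor markers summed to 529 to 729 in the first wave and 713 to 1192 in the second wave, against 2727, 1719, 445 and 686 in WT libraries 1 to 4, with Prtn3 and Ctsg at 0 in every first-wave library and Fcnb at 0 in every second-wave library; thymocyte and T-ALL markers were 77610, 79000, 123700 and 113600 in those WT libraries. Plasma cell markers summed to 2493 to 2936 in the first wave and 2266 to 3390 in the second wave, against 1964, 1640, 3790 and 1836 in WT libraries 1 to 4. Erythroid, macrophage, and stroma and endothelium sums overlapped between each wave and WT. The part of these cells in the values below was not tested.

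Manf had the smallest p in the first wave, with 399, 372 and 486 in the first wave, 360.5, 293 and 297 in the second wave and 261, 200.4, 386 and 255 in WT survival spleens. The first-wave change was 0.63 ± 0.24 (unadjusted p = 0.02004, adjusted p = 0.617; 0.41 without WT survival libraries 1 and 2), and WT library 3 lay inside the KO range. Exons of Manf overlap Rbm15b on the same strand in GENCODE M21, so reads of this pair cannot be told apart with certainty. Dnajc3 had 1546, 1448 and 1326 in the first wave, 1715, 1558 and 955 in the second wave and 736, 789, 1414 and 1149 in WT; its first-wave change was 0.54 ± 0.25 (unadjusted p = 0.0468), and 0.17 without those 2 WT libraries. Syvn1 had 497, 377 and 358 in the first wave, 365, 372 and 325 in the second wave and 242, 313, 335 and 288 in WT, with every first-wave library above every WT library (0.47 ± 0.21, unadjusted p = 0.0412). Ern1 was below WT in each first-wave library, at 111, 179 and 146 in the first wave, 182, 159.7 and 262 in the second wave and 276, 198, 198 and 227 in WT (-0.64 ± 0.27 in the first wave, unadjusted p = 0.0333). Without the same WT libraries the first-wave change was 0.39 for Syvn1 and -0.57 for Ern1. None of these passed after adjustment over all genes.

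In the second wave Hyou1 came nearest to the threshold. It had 1028, 986 and 1062 in the first wave, 1486, 1686 and 1327 in the second wave and 1004, 710.2, 1204 and 682 in WT, so every second-wave library was above every WT library. The second-wave change was 0.77 ± 0.21 (unadjusted p = 0.00222, adjusted p = 0.175); without WT survival library 3, the highest of the WT libraries, it was 0.92 with an adjusted p of 0.0419, the 1 call of a member in any survival alternative. Atf6 had 269, 399.7 and 334 in the first wave, 698, 453 and 549 in the second wave and 328, 261, 364 and 457 in WT; only the lowest second-wave library overlapped WT (0.69 ± 0.24, unadjusted p = 0.0132). Pdia4 had 276, 281 and 299 in the first wave, 409, 496 and 334 in the second wave and 259.9, 215, 451 and 219 in WT (0.58 ± 0.27, unadjusted p = 0.0490). Ssr4 had 378, 367 and 431 in the first wave, 689, 493 and 402 in the second wave and 327, 241, 523 and 366 in WT, groups that overlapped (0.55 ± 0.27, unadjusted p = 0.0557). Without WT survival libraries 1 and 2 the second-wave change was 0.72 for Hyou1, 0.45 for Atf6, 0.37 for Pdia4 and 0.24 for Ssr4. Second-wave library 1, which stood apart on the first principal component, had the highest Atf6 and Ssr4 values of the second wave. The changes of these genes without that library are not given here.

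Herpud1 and Eif2ak3 had the most negative log2 fold changes of the second wave, and both were highest in WT survival libraries 1 and 2. Herpud1 had 213, 291 and 288 in the first wave, 423, 281 and 225 in the second wave and 1226, 1332, 350.1 and 221 in WT: WT libraries 1 and 2 were high, and WT libraries 3 and 4 lay inside the KO range. Its change was -1.19 ± 0.51 in the first wave and -0.99 ± 0.51 in the second, and -0.09 and 0.10 without WT survival libraries 1 and 2. Eif2ak3 had 678, 1194 and 948 in the first wave, 452, 884 and 488 in the second wave and 1879, 1684, 481 and 779 in WT (-0.19 ± 0.41 in the first wave and -0.85 ± 0.41 in the second); without WT survival libraries 1 and 2 its change was 0.58 in the first wave and -0.08 in the second. Derl1 and Dnajb9 were also highest in WT libraries 1 and 2, with 1439, 1366, 995 and 1087 for Derl1 and 487, 474, 313 and 276 for Dnajb9, while Hspa5 was not, with 1637, 1590.0, 1697 and 1121. Without these libraries the count of members called stayed at 0 in each wave, and the members' median log2 fold change was 0.14 in the first wave and 0.23 in the second. The medians also rested on WT survival library 4: without it alone they were -0.02 in the first wave, with 21 of 38 members negative, and 0.05 in the second, and without second-wave library 1 the second-wave median was 0.06.

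**Figure D4:**
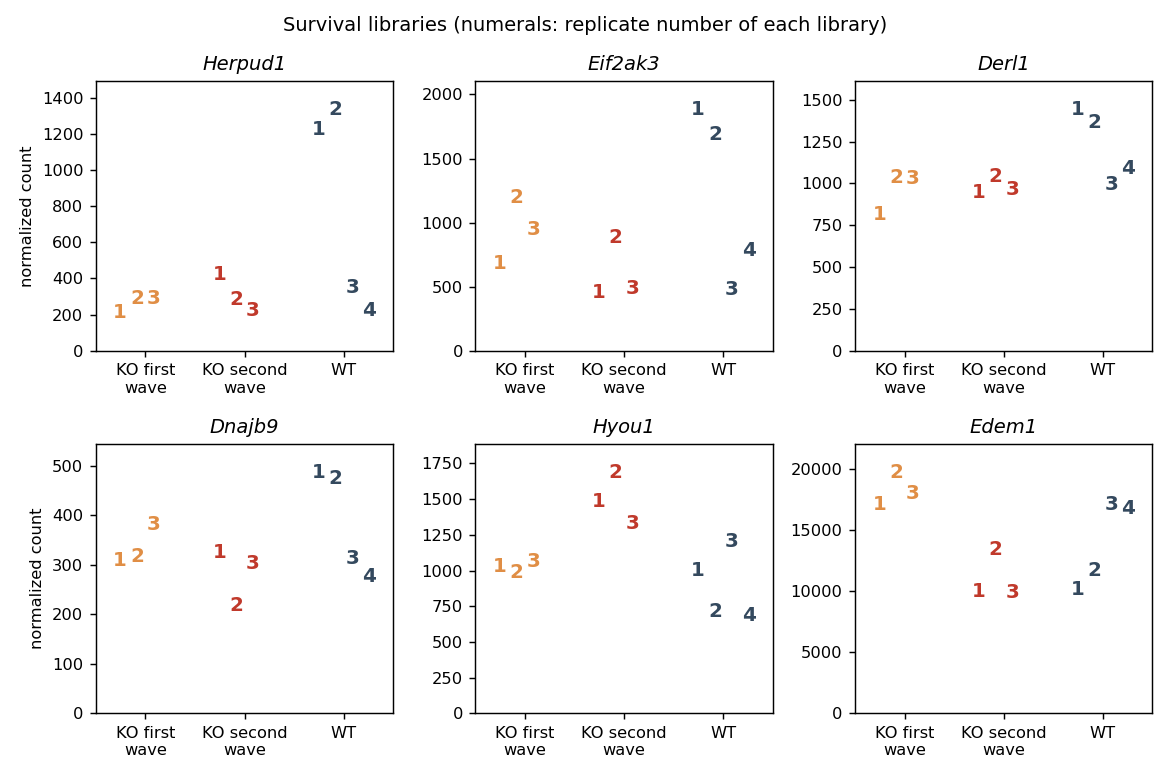
Normalized counts of Herpud1, Eif2ak3, Derl1, Dnajb9, Hyou1 and Edem1 in every survival library, for the first wave (n = 3), the second wave (n = 3) and WT (n = 4); each numeral is a library and gives its replicate number, and every axis starts at 0. Second-wave Hyou1 sits at 1327 to 1686, above WT at 682 to 1204, and Herpud1 in WT splits into 1226 and 1332 for libraries 1 and 2 and 350 and 221 for libraries 3 and 4.

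Between the waves, 0 members were called against 0.119% of all genes, with 1 lower and 3 higher at an unadjusted p under 0.05 (3.76% and 2.58% of all genes; 17 genes were called, and 1, 1 and 10 without first-wave libraries 1, 2 and 3) and a median log2 fold change of 0.07. Edem1 had the smallest p. It had 9968, 13401 and 9865 in the second wave and 17075, 19664 and 17926 in the first wave, with no overlap, against 10093, 11700.0, 17055 and 16716 in WT. The Edem1 change between the waves was -0.73 ± 0.20 (limma unadjusted p = 0.00285, adjusted p = 0.388). Against WT its change was 0.43 in the first wave and -0.31 in the second. Without WT survival libraries 1 and 2 these were 0.11 and -0.62. Higher in the second wave than in the first were Atf6 (0.76 ± 0.26), Erp29 (0.58 ± 0.26), Hyou1 (0.54 ± 0.22) and Pdia4 (0.51 ± 0.29), each with every second-wave library above every first-wave library and adjusted p-values of 0.605 to 0.862. Erp29 had 513, 567 and 701 in the second wave and 334, 403 and 457 in the first wave, against 343, 503, 359 and 647 in WT, and both waves overlapped the WT range. Ern1, whose counts are given above, had a change of 0.46 ± 0.29 between the waves, with overlapping groups. Groups did not overlap for 2 lower and 6 higher members, against 7.29% and 6.3% of all genes.

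The 15 members that were lower in KO acute spleens did not pass at the endpoint. Their log2 fold changes ran from -0.24 to 0.39 in the first wave, 5 negative and 10 positive with a median of 0.08, and from -0.18 to 0.59 in the second wave, 3 negative and 12 positive with a median of 0.19; in acute spleens they ran from -1.45 to -0.43. Tmed7 had 4153, 4499 and 5084 in the first wave and 4814, 4728 and 4552 in the second wave, against 4336, 3918, 4520.1 and 3712 in WT (0.15 ± 0.14 and 0.19 ± 0.14). Pdia3 had 2268, 2366 and 2529 in the first wave and 2923, 2336 and 2195 in the second wave, against 1815, 2173, 2260.5 and 1772 in WT (0.26 ± 0.16 and 0.31 ± 0.16). Sdf2l1 had 167, 118 and 188 in the first wave and 272, 183 and 164 in the second wave, against 142, 122, 195 and 94.5 in WT (0.21 ± 0.31 and 0.59 ± 0.31). The groups overlapped in both waves for Sdf2l1, and every second-wave Tmed7 library and every first-wave Pdia3 library was above every WT library. Without WT survival libraries 1 and 2 the first-wave and second-wave changes were 0.16 and 0.20 for Tmed7, 0.25 and 0.30 for Pdia3 and 0.19 and 0.57 for Sdf2l1. All 15 members were below the WT mean in WT survival library 4, with a median of -0.31; without that library the median over the 15 was -0.02 in the first wave (8 negative and 7 positive) and 0.09 in the second (3 negative and 12 positive). First-wave Sec61g was at -0.11 ± 0.44. Without first-wave library 2 it was the lowest of the 15 at -0.60 (3 negative and 12 positive, median 0.17). Without first-wave library 1 it was the highest at 0.55 (6 negative and 9 positive, median 0.16). Acly was at 42.8% of WT in the first wave and 34.0% in the second. The difference between the acute and the survival fold changes was not tested, because the tables were normalized separately and each has its own WT libraries. Of the 134 other pathway genes tested in survival spleens, 0 passed against WT in either wave by limma. At an unadjusted p under 0.05, 7 were lower and 6 higher in the first wave, against 3.6% and 4.42% of all genes. In the second wave 6 were lower and 10 higher, against 6.4% and 6.59% of all genes.

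**Figure D5:**
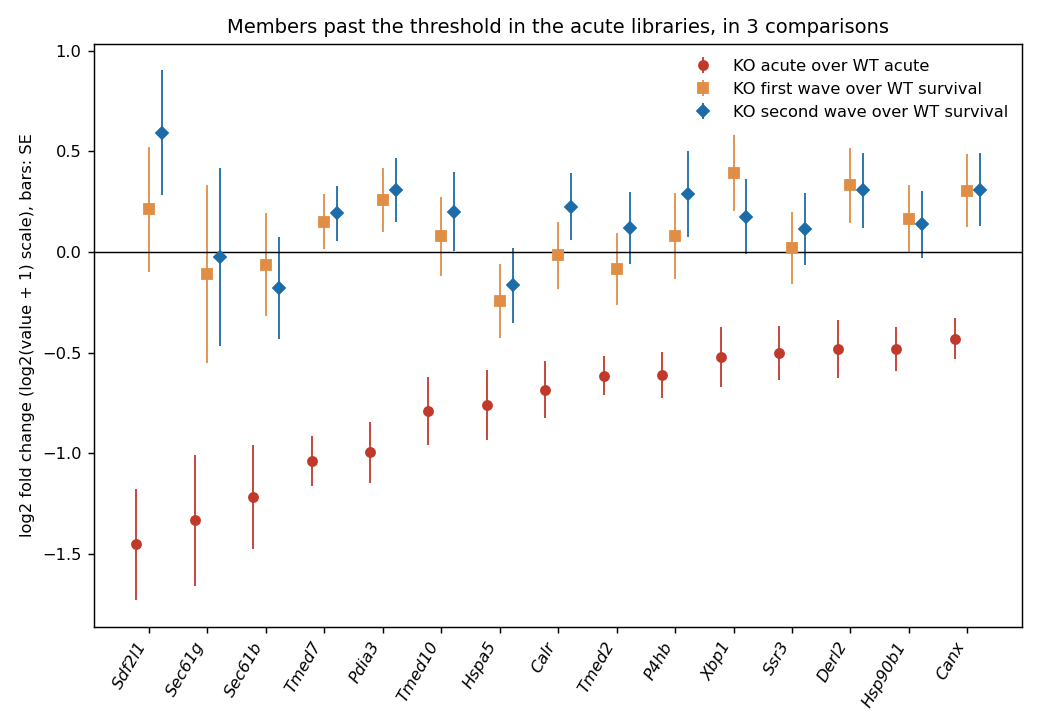
Log2 fold change against the table's own WT in the acute comparison, the first wave and the second wave, for the 15 members lower in KO acute spleens, with members along the horizontal axis and bars for the standard error of the limma fit. The acute values lie between -1.45 and -0.43 because they chose the members, and the survival values lie between -0.24 and 0.59 around medians of 0.08 and 0.19.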

How the data were processed

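RNA-seq of 18 mouse leukemic spleens was analysed from 2 tables that the authors deposited. Their values (unit signal) are gene counts from kallisto 0.44.0 divided by DESeq size factors, on GRCm38, per the submitters' processing notes; per the labels' protocols, red blood cells were lysed and libraries were strand-specific. The strand setting of the counting, its annotation and the DESeq version were not given in the sources used here. Between 37.9% and 63.6% of low values came within 0.02 of a whole multiple of the smallest step; since whole reads could not be recovered, no count model was used.

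Values were transformed to log2(value + 1), the scale of all fold changes; changes of low genes are understated on it. With R 4.3.3, limma 3.58.1 (lmFit, eBayes with trend) tested genes with a mean of at least 10, and p-values were adjusted by Benjamini-Hochberg over all genes tested. The survival fit held all 10 libraries. The members, lists and tests were chosen with earlier results of these data known. By rule, every library's value was given for up to 12 members per comparison by adjusted p, or for 6 by p where fewer than 6 passed. Chosen after their values were seen were Dnajc3, Hyou1, Erp29, Xbp1, Derl2, Herpud1, Ssr3 and Ssr4 in acute spleens, and Tmed7, Sdf2l1, Derl1, Dnajb9 and Hspa5 in survival spleens. Alternatives were other pseudocounts (0.5 and 5), filters (none and 50), scalings (quantile, TMM), eBayes settings, a replicate block, a correction for length, GC content and abundance, and leaving out libraries. Exons of 15 members overlap another gene in GENCODE M21, 13 of them on the opposite strand (Derl2, Pdia3, Hsp90b1, Erp29 and Tmed10 among them), and such reads cannot be separated if strand was not used. For 4 members (Hsp90b1, Manf, Pdia4 and Tmed7) an overlap is on the same strand, where strand cannot separate the reads.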

Additional observations from a re-analysis of the deposited data

Results flagged for a closer look

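Of 117 checks of the highest or lowest library of a tested member or of Acly in a group of 4, 3 found a library far from the other 3. Chance gives about 1 in 20, so these 3 are no more than chance would give. Herpud1 was at 371 (370.94) in KO acute library 2, against 129 to 163 in the other KO acute libraries. Txndc5 was at 435 (435.15) in WT survival library 3, against 304 to 323 in the others. Derl2 was at 573 (572.51) in WT survival library 4, against 787 to 829 in the others.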

How the results depend on the processing

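The count of members lower in KO acute spleens was 15, against 12.6% of all genes called. It was 7 with eBayes without a trend (4.89% of all genes) and 9 after correction for length, GC and abundance (9.67%). With no filter it was 14 (9.09%), and with a mean of at least 50 it was 17 (18.6%). Quantile normalization gave 11, with 10 lower and Hyou1 higher (11.1%). Leaving out 1 library gave 11 to 15, against 6.91% to 11.6% of all genes. Over all genes the acute count of 1794 became 693 without a trend, 903 without KO acute libraries 1 and 2, 983 without WT acute library 4 and 1179 without WT acute library 2. The same-numbered libraries of the groups did not deviate together over all genes (correlations of -0.03 to 0.09). This cannot exclude that they share a batch, which the labels do not give. With the replicate block 13 members and 1391 genes (9.81% of all) were called in acute spleens. In the survival comparisons 0 members were called under every alternative run except 1, Hyou1 in the second wave, without WT survival library 3 (0.92); leaving out single libraries therefore gave 0 to 1 there. Over all genes, leaving out single libraries gave 0 to 3 genes in the first wave (0 with all libraries); 15 to 140 in the second wave (32), with 140 without WT survival library 3, 61 without second-wave library 3, 21 without first-wave library 1 or 2, 19 without WT survival library 1 and 15 without WT survival library 2; 2 to 155 for both waves (3), with 155 without WT survival library 3 and 5 without second-wave library 3; and 1 to 38 between the waves (17), with 38 without second-wave library 3, 6 without second-wave library 1, 4 without WT survival library 2 and 8 without WT survival library 3 or 4. Herpud1 turned sign without WT survival libraries 1 and 2, to 0.10 in the second wave and 0.00651 for both waves. Acly in the first wave passed the threshold with a pseudocount of 5 (log2 fold change -1.22, adjusted p = 0.0483), no filter (-1.22, 0.0440), a mean of at least 50 (-1.22, 0.0424), robust eBayes (-1.22, 0.0398) and quantile normalization (-1.22, 0.0459); leaving out single libraries gave -1.29 to -1.15. Named members that lost the acute call were Calr, Tmed10, Hsp90b1, Hspa5 and Canx without a trend (adjusted p = 0.0548 to 0.0835), Hsp90b1 and Canx with quantile normalization (0.0696 and 0.103), Sec61b (0.0509) and Tmed10 (0.0714) without KO acute libraries 1 and 2, and Sec61g without WT acute library 4 (0.0594). After correction for length, GC and abundance, Tmed2 (0.0506), Canx (0.146) and Hsp90b1 (0.304) lost it too. The cause was not tested.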

Other observations

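Ratios within complexes, chosen after the values were seen and given with no test, differed between the acute groups. Sec61b per Sec61a1, both in normalized counts, was 0.0475 to 0.0925 in KO acute spleens and 0.117 to 0.179 in WT acute spleens, and Sec61g per Sec61a1 was 0.0186 to 0.0417 in KO and 0.0663 to 0.105 in WT. Hspa5 per Hyou1 was 0.704 to 1.09 in KO acute spleens and 1.32 to 2.13 in WT acute spleens. In the survival table that ratio was 1.01 to 1.38 in the first wave and 0.797 to 0.945 in the second wave, against 1.41 to 2.24 in WT. Sec61b per Sec61a1 was 0.111 to 0.167 in the first wave and 0.0969 to 0.164 in the second wave, against 0.123 to 0.179 in WT survival spleens. Sec61g per Sec61a1 was 0.0227 to 0.144 in the first wave and 0.0606 to 0.071 in the second wave, against 0.0631 to 0.0937 in WT survival spleens.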
